A study of Rattus norvegicus with 14 samples.

Results

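The genes described here make, carry, attach and remove ubiquitin, or build the proteasome that degrades ubiquitin-tagged proteins, and their RNA was compared in the hippocampal subfield CA3 of rats after a spatial learning task and after a control task. They were taken from a list of 52 genes, and a gene counted as measured where the array's annotation named it alone for at least 1 probe set, a group of short oligonucleotides that reads a stretch of its transcript. That held for 45 of the 52 genes, with 60 probe sets of the 15923 on the array, and 44 genes with 57 probe sets passed the filter on dim probe sets, which left 6836 named genes in all. Psmc6, Psmd12, Psmd14, Usp14 and Ubb had no such probe set, Psmb6 and Ube2d3 shared theirs with another gene, and the only probe set of Ube3a lay below the filter (mean log2 level 0.97). Each gene is given by its brightest probe set, and its other probe sets are named where used.

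All 14 samples came from male Long-Evans rats, 3 to 4 months old, which had been trained in a standard water maze and rested 2 to 3 weeks. They then swam 8 trials, 8 min apart, in an unfamiliar pool at another site, and were killed right after a 90 s probe trial given 1 h later. The 7 samples of the learning group came from rats with orienting cues and a visible platform that kept its place. The 7 control samples came from rats with a visible platform that changed place and no informative cues, so cues, platform movement and encoding of place cannot be told apart. Each array held RNA of dissected CA3, and its samples are labelled biological replicates without saying whether each is 1 animal. Levels of the 9520 probe sets that passed the filter correlated between arrays at 0.983 to 0.995. On their first principal component 3 arrays stood apart: control replicate 5 at its low end and learning replicates 4 and 6 at its high end. Of 7 CA3 marker genes 4 were measured (Grik4, Bok, Plagl1 and Prkcd) and all 4 passed the filter, as did the 4 measured CA1 markers and 2 of 4 measured dentate granule markers.

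As background, ubiquitin is activated by the E1 enzyme Uba1, passed to an E2 conjugating enzyme and joined to a target by a ligase, while deubiquitinases take it off again. Chains of ubiquitin bring proteins to the 19S cap of the proteasome, whose ATPases unfold them and feed them into the 20S core, a barrel of alpha and beta rings in which beta subunits cut the chain. In neurons this system turns over receptors, scaffolds and signalling proteins at synapses, and it is known for its part in synaptic plasticity. A transcript level says nothing on the activity of the assembled proteasome.

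Proteasome subunit genes share control elements in many animals, among them the antioxidant response element bound by Nfe2l1 and Nfe2l2. Its core, written TGACNNNGC, was searched on both strands in the 250 bases before and 50 bases after the start site of each gene in RefSeq's rat promoters (assembly GRCr8). No other motif was searched. It was found for 6 of the 27 proteasome subunit genes in that table (22.2%) and in 12.1% of all 33469 promoters. Subunits were counted by gene and all promoters by entry, without matching for expression or base content. The difference between these shares was not tested. The matches are printed 5′ to 3′ on the gene's strand with 25 bases on each side, cut off at the window's end. Whether any of them is a working element was not tested. Capitals mark the match, which reads GCNNNGTCA where it lies on the opposite strand.
Psmb2, chr5:144254965-144255023, plus strand: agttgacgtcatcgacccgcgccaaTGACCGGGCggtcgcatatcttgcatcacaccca
Psmb5, chr15:32047406-32047464, minus strand: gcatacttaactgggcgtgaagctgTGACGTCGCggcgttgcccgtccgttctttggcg
Psmb6, chr10:55737839-55737897, plus strand: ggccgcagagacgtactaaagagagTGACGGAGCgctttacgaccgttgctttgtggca
Psma3, chr6:95219712-95219770, plus strand: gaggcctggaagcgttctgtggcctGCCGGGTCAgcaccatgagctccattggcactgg
Psmd3, chr10:84139926-84139984, plus strand: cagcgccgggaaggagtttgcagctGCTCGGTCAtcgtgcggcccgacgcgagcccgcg
Psmd1, chr9:94157781-94157839, plus strand: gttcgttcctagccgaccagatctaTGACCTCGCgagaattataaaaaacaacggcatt
Psmd1, chr9:94157968-94158020, plus strand: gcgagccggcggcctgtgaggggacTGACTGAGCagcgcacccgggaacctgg

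Fold changes between the groups were small for subunits with and without a match, and the difference was not tested. The 5 tested subunits with a match had a median log2 fold change, learning minus control, of -0.028, with -0.11 for Psmb5, -0.093 for Psmd3, -0.028 for Psmb2, 0.0083 for Psmd1 and 0.088 for Psma3. The 20 tested subunits whose promoters held no match had a median of -0.068. A match is a description of the sequence and no evidence of binding.

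Most differences between the groups were small. Of the 27 proteasome genes 23 (85.2%) lay below 0, that is, lower in learning arrays, and none of them passed the test. Of all 6836 tested genes 63.9% lay below 0 too, and of the 2964 genes at least as bright as the dimmest proteasome subunit 64.5% did. E1 and E2 enzymes and deubiquitinases lay near the level of the controls at their brightest probe sets. The ligase genes Nedd4 and Skp1 rose, and Ube2g1 and Usp9x rose at dimmer probe sets of theirs. Calls were made with limma at an adjusted p under 0.05 over all 9520 tested probe sets. At brightest probe sets 2 of the 44 members were called, against 2.57% of all genes, and over all probe sets 4 of 57 were called, against 3.35% of all probe sets (2.55% higher and 0.798% lower). All 4 were higher. These shares are of 2 and 4 items and lie near the background. In the samples as a whole, fewer cells of a type and less RNA per cell cannot be told apart.

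**Figure D1:**
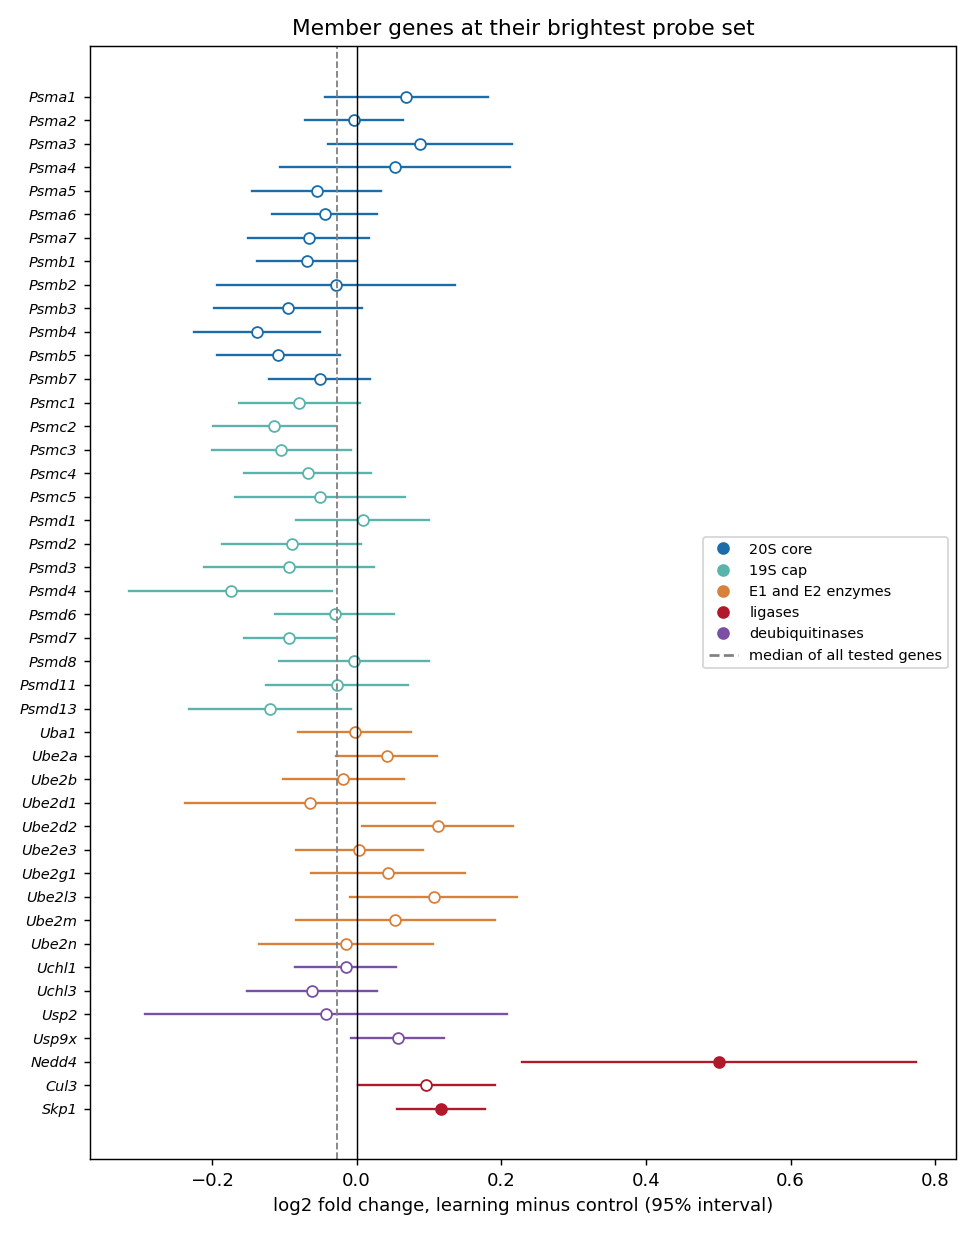
Log2 fold change, learning minus control, of the 44 tested genes at their brightest probe sets (points, filled where called by limma at an adjusted p under 0.05), with 95% confidence intervals as lines and classes as colours. Of the 27 proteasome subunits 23 lie below 0, as do 63.9% of all tested genes, and Nedd4 and Skp1 are the filled points; the dashed line marks the median of all tested genes, -0.027.

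The 20S core was represented by 13 of its 14 listed genes. None was called with limma, and at an unadjusted p under 0.05 the count was 2 lower (15.4%) and 0 higher. That share of lower genes lay near the 12.3% of all genes and the 15.1% of genes at least as bright. The median log2 fold change of the core was -0.051, beside -0.027 over all 6836 genes and -0.030 over the 2964 genes at least as bright as the dimmest proteasome subunit. The alpha ring, which forms the gate of the barrel, was mixed, with 3 of 7 genes above 0 and a median of -0.0031. Its values ran from -0.066 for Psma7 to 0.088 for Psma3, with 0.069 for Psma1, 0.053 for Psma4, -0.0031 for Psma2, -0.044 for Psma6 and -0.055 for Psma5.

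All 6 measured beta ring genes lay below 0, the side on which 63.9% of all genes lay, with a median of -0.081. Psmb4, a structural beta subunit, had the largest difference of the core. Control arrays had log2 levels from 10.94 to 11.09, with a median of 11.01, and learning arrays levels from 10.74 to 11.01, with a median of 10.90. All 7 learning arrays lay below the control mean and 6 of them below the lowest control, so the groups overlapped in 1 learning array. The log2 fold change was -0.14 (SE 0.041, 1.10-fold lower, adjusted p = 0.0785). Psmb4 passed with trended variance moderation alone (adjusted p = 0.0497), and over 32 alternatives its value stayed between -0.16 and -0.085.

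The 5 other measured beta genes had smaller values. Psmb5, which carries the chymotrypsin-like cutting site, had -0.11 (adjusted p = 0.143), and all 7 learning arrays lay below its control mean. Psmb7, which carries the trypsin-like site, had -0.051. Psmb3 had -0.094, Psmb1 -0.069 and Psmb2 -0.028. Psmb6, the remaining subunit with a cutting site, was not analysed here.

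The 19S cap was represented by 14 of its 17 listed genes, and 13 of the 14 lay below 0, beside 63.9% of all genes. None was called with limma, and at an unadjusted p under 0.05 the count was 5 lower (35.7%) and 0 higher. Beside that, 12.3% of all genes and 15.1% of genes at least as bright lay lower, and the difference was not tested. The median log2 fold change of the cap was -0.084. Its 5 measured ATPases, the ring that unfolds the substrate, were all below 0: Psmc2 (-0.11), Psmc3 (-0.10), Psmc1 (-0.079), Psmc4 (-0.068) and Psmc5 (-0.050). Psmc2, the brightest probe set of the cap, had levels of 10.79 to 10.90 in control arrays (median 10.83) and of 10.62 to 10.86 in learning arrays (median 10.69). In 5 of 7 learning arrays Psmc2 lay below the lowest control, while learning replicates 2 and 6 lay within the control range (adjusted p = 0.122).

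Psmd4, a ubiquitin receptor of the cap, had the largest difference among the 27 subunits and also the largest standard error of the cap. Its log2 level ran from 9.24 to 9.55 in control arrays, with a median of 9.32, and from 8.98 to 9.40 in learning arrays, with a median of 9.16. The groups overlapped, since 3 of 7 learning arrays lay within the control range. The log2 fold change was -0.17 (SE 0.066, 1.13-fold lower, adjusted p = 0.154). Psmd7, the partner of the cap's own deubiquitinase, had a smaller but tighter difference of -0.093 (SE 0.030, adjusted p = 0.0991). In Psmd7 6 of 7 learning arrays lay below the lowest control, and it was the only subunit called when no probe set was filtered out.

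The other non-ATPase subunits, which hold the cap together or bind its substrates, ran from -0.12 to 0.0083. Psmd13 had -0.12, Psmd3 -0.093, the large scaffold subunit Psmd2 -0.090, Psmd6 -0.030 and Psmd11 -0.027, with -0.10 at the second probe set of Psmd11. Psmd8 had -0.0037, and Psmd1, the other large scaffold, had 0.0083.

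Over the 27 subunits the median was -0.066, and the 95% confidence intervals of the single genes reached from -0.31 to 0.21. Of the 27, 7 lay lower at an unadjusted p under 0.05 (25.9%) and 0 lay higher. The same share was 12.3% over all genes (6.33% higher) and 15.1% over the genes at least as bright. A list chosen with these results known gets no test of its own here, so the difference from that background was not tested.

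**Figure D2:**
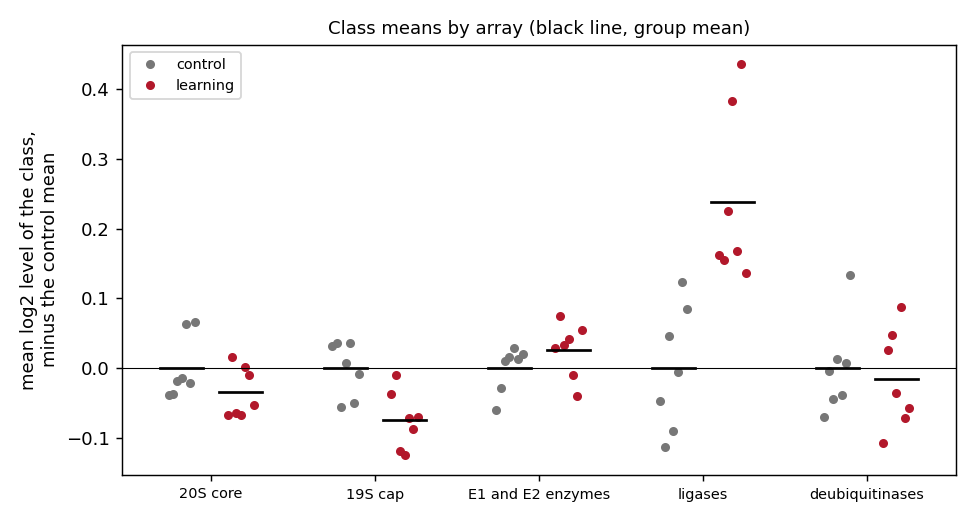
Mean log2 level of the tested genes of each class in each array, set to 0 at the control mean (grey points control, red points learning, 7 arrays per group, black lines group means). For the 19S cap all 7 learning arrays lie below the control mean. For the ligases, 3 genes of which 2 were called, the groups do not overlap.

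Averaged over its genes, the 19S cap lay below the control mean in all 7 learning arrays. Relative to that mean, control arrays ran from -0.056 to 0.037 and learning arrays from -0.12 to -0.0099, with 5 of 7 below the lowest control. For the 20S core control arrays ran from -0.038 to 0.066 and learning arrays from -0.067 to 0.016, with 4 of 7 below the lowest control. Learning arrays averaged -0.034 ± 0.036 (SD, n = 7) for the core, a difference of the size of the spread between arrays (control SD 0.045). For the cap they averaged -0.074 ± 0.041, a difference larger than either group's SD (control SD 0.040), though the groups overlapped. These means are descriptions and carry no test. They are set against 0, while the median log2 fold change was -0.027 over all tested genes and -0.030 over those at least as bright.

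Within groups the subunits varied together only weakly. After the group mean was taken off each gene, the median Pearson correlation over 14 arrays was 0.18 over the 78 pairs of core genes and 0.21 over the 91 pairs of cap genes. It was 0.0081 over all pairs of tested genes and 0.010 over pairs of genes at least as bright as the dimmest subunit. Over the 351 pairs of the 27 subunits together the median was 0.14, and over the 45 pairs of E1 and E2 enzymes it was 0.070. Without control replicate 5, the array least like the others, the medians were 0.18 for the core and 0.21 for the cap. For the 27 subunits together the median was then 0.10, and for the E1 and E2 enzymes 0.11. The genes share the same 14 RNA samples and arrays, so these values are given as a description.

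Uba1, the enzyme that starts the cascade, differed by less than its error. Its log2 level ran from 10.50 to 10.66 in control arrays (median 10.64) and from 10.52 to 10.68 in learning arrays (median 10.61), and the groups overlapped. The difference was -0.0026, with a 95% confidence interval from -0.080 to 0.075. So small a value turned its sign under several alternatives.

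The 9 measured E2 enzymes, which set the kind of chain and pair with particular ligases, were not called at their brightest probe sets. At an unadjusted p under 0.05 (limma) 1 of the 9 lay higher, beside 6.33% of all genes. The median of the E1 and E2 class was 0.023. Ube2d2, which works with many ligases, had the largest difference there. Its log2 level ran from 8.98 to 9.24 in control arrays (median 9.16) and from 9.16 to 9.31 in learning arrays (median 9.23). All 7 learning arrays lay above the control mean, but only 2 lay above the highest control (log2 fold change 0.11, adjusted p = 0.217). Its dimmest probe set had 0.22 (adjusted p = 0.0745). The coding sequences of Ube2d2 and Ube2d3 are closely related and 3 further probe sets are annotated to both, so signal of the pair may not be separable.

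The other E2 enzymes spread around 0. Ube2l3, which serves ligases of the HECT kind such as Nedd4, had 0.11, and Ube2m, which passes the ubiquitin relative NEDD8 to cullins, had 0.054. Ube2g1 had 0.043, Ube2a 0.041, Ube2e3 0.0040, Ube2n -0.014, Ube2b -0.018 and Ube2d1 -0.065 at their brightest probe sets. At second probe sets Ube2n had 0.15, Ube2b 0.11, Ube2l3 0.019, Ube2d1 -0.0047 and Ube2e3 -0.16, and none of these was called. The sign thus turned for Ube2n, Ube2b and Ube2e3.

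At its second probe set Ube2g1 rose 1.43-fold. The log2 level there ran from 6.95 to 7.57 in control arrays, with a median of 7.23, and from 7.49 to 8.15 in learning arrays, with a median of 7.75. In 5 of 7 learning arrays Ube2g1 lay above the highest control at this probe set, while learning replicates 1 and 2 lay within the control range. The log2 fold change was 0.51 (SE 0.11, adjusted p = 0.0209). The call held without each single array but not without the 3 arrays that stood apart (0.37, adjusted p = 0.105). It also ended with no filter on dim probe sets (adjusted p = 0.0550), and with the Gapdh ratio (adjusted p = 0.0919), the spike-in level (adjusted p = 0.0804) or the probe set balance (0.34, adjusted p = 0.554) in the fit.

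Of the 4 measured deubiquitinases none was called at its brightest probe set with limma, and 0 had an unadjusted p under 0.05. Uchl1, an abundant ubiquitin hydrolase of neurons, ran from a log2 level of 11.43 to 11.62 in control arrays (median 11.50) and from 11.46 to 11.54 in learning arrays (median 11.49), all within the control range. Its log2 fold change was -0.015, with a 95% confidence interval from -0.085 to 0.055. Uchl3, its wider expressed relative, had -0.062 (adjusted p = 0.443). Levels of Uchl3 ran from 8.61 to 8.80 in control arrays (median 8.72) and from 8.55 to 8.75 in learning arrays (median 8.65), and the groups overlapped. Usp2 had -0.042, with 0.078 at its other probe set.

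Usp9x, a large deubiquitinase that protects many proteins from degradation, rose at the dimmest of its 3 probe sets. The log2 level there ran from 7.81 to 8.23 in control arrays, with a median of 8.06, and from 8.38 to 8.75 in learning arrays, with a median of 8.49. The groups did not overlap at this probe set, as at 2.10% of all tested probe sets. The log2 fold change was 0.48 (SE 0.075, 1.39-fold, adjusted p = 0.00453). At its brighter probe sets Usp9x had 0.11 (adjusted p = 0.238) and 0.057 (adjusted p = 0.310), also above 0. The call held without each single array and without the 3 arrays that stood apart, and it was lost when the Gapdh 3'/5' ratio entered the fit (0.41, adjusted p = 0.0533) or the probe set balance did (0.31, adjusted p = 0.437).

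All 3 tested ligase genes lay above 0, with values of 0.50, 0.12 and 0.097, beside 2465 of all 6836 tested genes. These 3 were chosen with results known and do not stand for ligases as a class. Ligase genes outside the list lay on both sides of 0, such as Stub1 (-0.14), Ube3b (-0.14), Mdm2 (0.24) and Trim9 (0.16), none of them called. Nedd4, the HECT ligase known for tagging membrane proteins, AMPA receptors among them, rose 1.42-fold at its brightest probe set. Its log2 level ran from 10.49 to 11.08 in control arrays, with a median of 10.75, and from 11.00 to 11.78 in learning arrays, with a median of 11.15. In 5 of 7 learning arrays Nedd4 lay above the highest control, and learning replicates 4 and 6, at 11.67 and 11.78, were the highest by a clear gap. The log2 fold change was 0.50 (SE 0.13, adjusted p = 0.0454), and the second probe set of Nedd4 had 0.11 (adjusted p = 0.277). Without the 3 arrays that stood apart, those 2 among them, the value was 0.31 (adjusted p = 0.157), and with the probe set balance in the fit it was 0.32 (adjusted p = 0.637).

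Skp1, which links F-box proteins to the cullin scaffold of SCF ligases, rose by a small amount with little spread. Its log2 level ran from 11.46 to 11.56 in control arrays (median 11.52) and from 11.57 to 11.68 in learning arrays (median 11.63). The groups did not overlap, which at brightest probe sets held for 1.40% of all genes and for Skp1 alone among the 44. The log2 fold change was 0.12 (SE 0.029, 1.08-fold, adjusted p = 0.0389). Cul3, the scaffold of ligases that use BTB adaptors, had 0.097 (SE 0.045, adjusted p = 0.242), with all 7 learning arrays above its control mean. The mean of the 3 genes did not overlap between groups, and Nedd4 carried most of its size. Since it is built from both called genes, this mean adds nothing separate from their calls.

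Calls of Nedd4 and Skp1 at brightest probe sets lay close to the threshold. Leaving out any of control replicates 1 to 5, or any of learning replicates 1, 3, 4, 5 and 6, ended the call of Nedd4 (adjusted p from 0.0348 to 0.0917 over all 14 omissions, log2 fold change from 0.42 to 0.55). For Skp1 the call was kept without control replicate 6 or learning replicate 3 and ended without each of the other 12 arrays (adjusted p from 0.0387 to 0.0779, log2 fold change from 0.11 to 0.13). With the replicate number as a block Nedd4 was called and Skp1 was not (adjusted p = 0.111). Both kept their direction in all 32 alternatives.

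**Figure D3:**
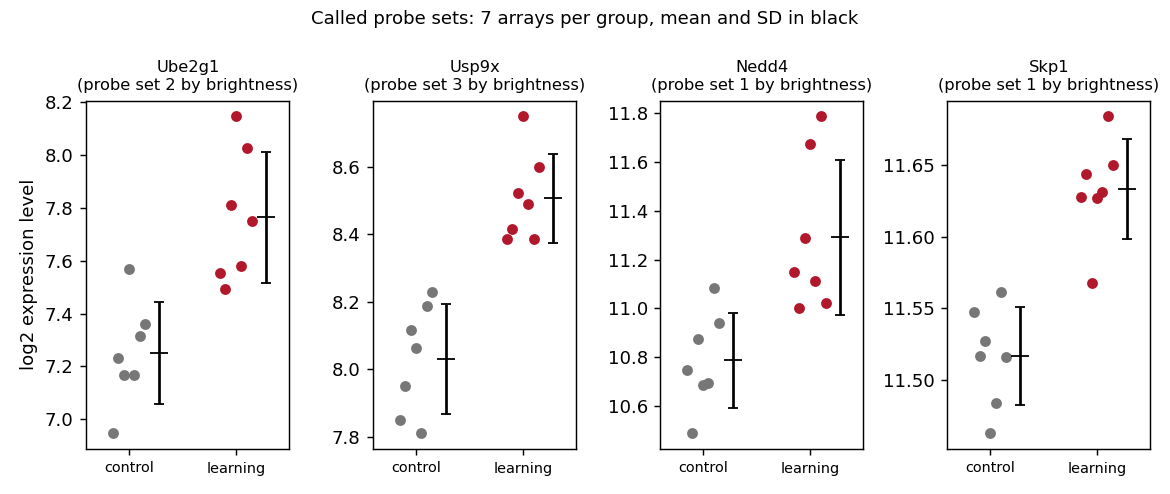
Log2 expression level of the 4 called probe sets in each array (7 control arrays in grey, 7 learning arrays in red), with the group mean and SD in black and a separate axis for each gene. Usp9x and Skp1 do not overlap between groups, while Nedd4 and Ube2g1 do.

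Probe sets of the same gene differed in how far they moved. Of the 44 genes, 11 had several tested probe sets, and in 7 of them the dimmest had a higher fold change than the brightest, beside 70.4% of the 942 such genes on the array. The median of the dimmest minus the brightest was 0.10 for the 11 genes and 0.095 for all 942. In a limma fit of this difference over all 942 genes, adjusted over them, Usp9x (0.42, SE 0.080, adjusted p = 0.00609) and Ube2g1 (0.47, SE 0.093, adjusted p = 0.00609) were called higher. Of all 942 genes 15.6% were called, 13.2% higher. For Nedd4 the dimmer probe set moved less, by -0.39 (SE 0.14, adjusted p = 0.0729). These contrasts compare changes between probe sets of 1 gene, and which parts of the transcripts the probe sets read was not analysed here.

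**Figure D4:**
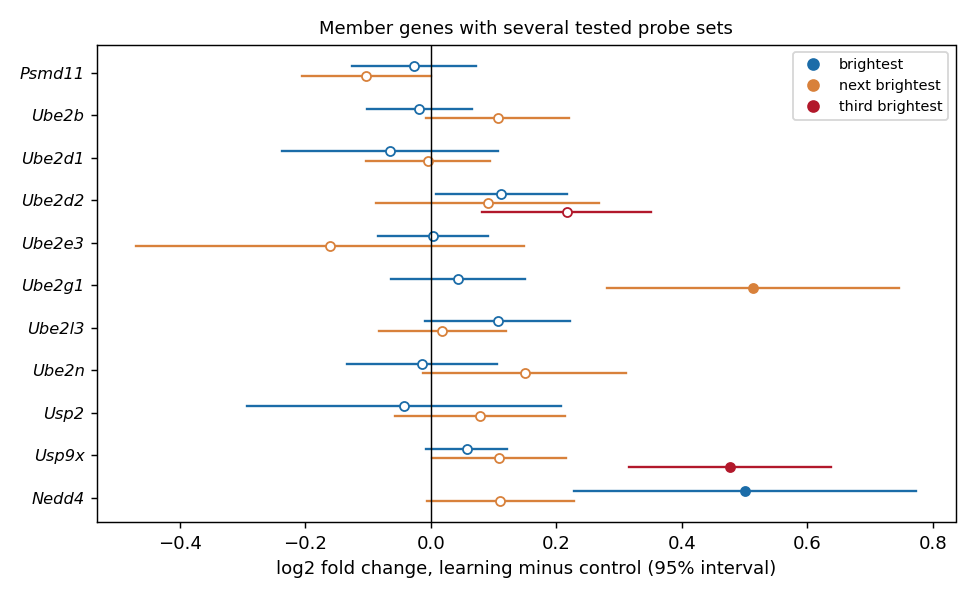
Log2 fold change, learning minus control, with 95% confidence interval for every tested probe set of the 11 genes with several (blue for the brightest, orange for the next, red for the dimmest where there are 3; filled where called by limma). The called probe sets of Ube2g1 and Usp9x are dimmer ones, and that of Nedd4 is its brightest.

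Some measures of the arrays and tissue passed a test between the groups, and others did not. The balance of dimmest minus brightest probe sets over 349 other genes was -3.41 ± 0.11 in control and -3.24 ± 0.03 in learning arrays (SD, n = 7). Its exact permutation test gave p = 5.83e-04, two-sided, which is the lowest value possible with 3432 assignments (0.00408 after Benjamini-Hochberg adjustment over the 14 measures tested). The Gapdh 3'/5' ratio, on the log2 scale, was 0.51 in control and 0.45 in learning arrays (exact permutation p = 0.0443, adjusted 0.103). Neither the hexokinase ratio (exact permutation p = 0.281, adjusted 0.438) nor the actin ratio (exact permutation p = 0.460, adjusted 0.586) differed. The mean level of 5 of 6 listed neuronal markers (Snap25, Rbfox3, Stmn2, Nefl and Eno2) ran from 11.38 to 11.48 in control and from 11.50 to 11.57 in learning arrays (exact permutation p = 5.83e-04, adjusted 0.00408), so the groups did not overlap. The mean of 7 of 8 choroid plexus markers, 2 of them above the filter, ran from 3.79 to 4.42 in control and from 3.46 to 3.79 in learning arrays (exact permutation p = 0.00175, adjusted 0.00816). The mean of 5 of 6 endothelial markers, 3 of them above the filter, ran from 4.93 to 5.06 in control and from 4.62 to 4.98 in learning arrays (exact permutation p = 0.0152, adjusted 0.0424), and the groups overlapped. The mean of the spike-in controls was higher in learning arrays (8.99 in control against 9.19 in learning arrays, adjusted exact permutation p = 0.0184). Marker means of CA3, CA1, dentate granule cells, microglia, astrocytes and oligodendrocytes did not pass (adjusted exact permutation p from 0.213 to 0.964). The part of these array and marker levels in the member values was not tested. With the probe set balance as covariate 0 members were called, 2 genes had an unadjusted p under 0.05, and the medians were -0.023 for the core, -0.048 for the cap and -0.0051 for all genes. The balance reached -3.34 at most in control arrays and -3.30 at least in learning arrays. As it separates the groups, its part and that of the group cannot be told apart in this fit.

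The wider ubiquitin and proteasome system showed few changes. Of 186 further genes, 151 were on the array and 137 were tested. At brightest probe sets 1 rose and 2 fell, against 1.59% of all genes called higher and 0.980% called lower, and the median log2 fold change was -0.010. Psmd10, a chaperone that helps to assemble the 19S cap, fell by 0.20 on the log2 scale (SE 0.046, 8.13 ± 0.06 in control against 7.94 ± 0.10 in learning arrays, adjusted p = 0.0336). Its groups did not overlap, as at the brightest probe sets of 1.40% of all genes. Ubxn1, a partner of the segregase Vcp, fell by 0.19 (SE 0.045, adjusted p = 0.0366). Cops2, a subunit of the COP9 signalosome, which takes NEDD8 off cullins, rose by 0.14 (SE 0.035, adjusted p = 0.0480), and its groups did not overlap either.

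Ubqln1, a shuttle that carries ubiquitinated proteins to the proteasome, had -0.088 at its brightest probe set and rose at a less bright one (0.20, adjusted p = 0.0333). Among genes given in any case, Nfe2l1 had -0.073 (adjusted p = 0.518) and Nfe2l2 -0.080 (adjusted p = 0.382). The F-box protein Fbxo2 had -0.063, the autophagy receptor Sqstm1 -0.044 and Vcp 0.0077, and none of the 3 passed.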

How the data were processed

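RNA of CA3 was labelled and hybridised to Affymetrix RAE230A arrays, per the labels' protocols, 1 array per sample and 7 per group. The authors deposited log2 expression levels for 15923 probe sets, made with GCRMA, per the submitters' processing notes. For the version and settings of GCRMA, the sources used here give nothing. The range of the values was taken to mean a log2 scale. GCRMA corrects background by probe sequence and normalizes between arrays, which compresses differences near background. Arrays have no read depth, and their number limits the precision.

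Genes came from the platform annotation (12783 probe sets naming 1 gene, 312 naming several), with symbols updated by Entrez ID for 12754. The 57 control probe sets and 6346 with a mean below the 40th percentile (log2 level 3.88) were left out. The other 9520 were fitted with limma 3.58.1 in R 4.3.3, learning minus control, without covariates, with Benjamini-Hochberg adjustment over the 9520. A call is an adjusted p under 0.05. The script was tested on simulated data. The 14 measures of array quality and markers were compared with exact permutation tests (two-sided), adjusted over the 14.

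Members and lists were chosen with earlier results of these data known. Array values are given for members called at any probe set and, in each class, for the member of largest change and the brightest. Further pathway genes are named where called, plus Nfe2l1, Nfe2l2, Fbxo2, Vcp and Sqstm1 in any case. Deviations of same-numbered control and learning arrays correlated from -0.16 to 0.13. That gives no sign of pairing by number, though such values cannot exclude it, and the arrays were treated as unpaired. Alternatives were 3 other filters, 2 normalizations, trended or robust moderation, array weights, the replicate block, 6 covariates, 2 ways to use 1 value per gene and each array left out. Leaving out 3 arrays together and the fit of differences between probe sets were added after the data were seen.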

Additional observations from a re-analysis of the deposited data

Results flagged for a closer look

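Groups of 7 arrays were examined for an array far from the others, in 32 groups of values given by array, of which chance would mark about 1 in 20. One was found. The mean level of the 4 tested deubiquitinases was 9.35 in control replicate 7, against 9.23 in the next highest and 9.15 in the lowest control array, a gap of 0.588 of the group's range. No deubiquitinase was called at its brightest probe set with or without that array.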

How the results depend on the processing

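Of 44 member genes 2 were called at brightest probe sets. The count was 1 with the filter at the 20th percentile, with array weights and with the replicate block, and 4 with the mean of all tested probe sets per gene (Nedd4, Skp1, Ube2g1 and Usp9x). It was 0 with the Gapdh, hexokinase or actin ratio, the spike-in level, the dentate marker level or the probe set balance as covariate, with only the brightest probe set per gene, and without the 3 arrays that stood apart (control replicate 5, learning replicates 4 and 6). In those 8 alternatives, 2 to 11 genes had an unadjusted p under 0.05. Without filtering it was 2, with Psmd7 in place of Nedd4. Member probe sets called, 4 in all, were 0 with the Gapdh ratio or the probe set balance, 1 with the spike-in level or without the 3 arrays, and 2 with the hexokinase or actin ratio or the dentate level. The 3 calls among other pathway genes became 1 without a filter, with the replicate block (Mdm2, not one of the 3) or with the actin ratio, and 0 with the Gapdh or hexokinase ratio, spike-in level, dentate level or probe set balance or without the 3 arrays, where 10 to 22 genes had an unadjusted p under 0.05. Leaving out 1 array gave 0 to 2 member genes, 2 to 4 member probe sets and 0 to 3 other genes. The cause of these losses was not tested. The near-zero value of Uba1 turned to 0.0010 with quantile normalization, 0.0058 with the hexokinase ratio, 0.0054 with the actin ratio, 0.014 with the spike-in level, 0.020 with the probe set balance and 0.014 without the 3 arrays, and ran from -0.020 to 0.012 with 1 array left out. That of Uchl1 ran from -0.029 to 0.0031 with 1 array left out. Over 32 alternatives class medians ran from -0.071 to -0.023 for the 20S core, -0.092 to -0.048 for the 19S cap, 0.0016 to 0.049 for E1 and E2 enzymes, -0.052 to 0.016 for deubiquitinases and 0.10 to 0.14 for ligases. Probe sets near background, such as that of Ube3a, give no usable comparison.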
